A study of Mus musculus with 8 samples.

Results

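The rows described here are annotated genes that lie just beyond the end of a gene on the other strand. They were chosen from the coordinates of a count table with 54146 rows, 1 for each annotated mouse gene. A row was taken when its exons overlapped no gene on the opposite strand, when at least 1 exon base lay within 5000 bases beyond the 3′ end of such a gene, and when its mean over all libraries was at least 5 counts. The mitochondrial chromosome was left out. The rule took 1421 rows, 2.62% of the table, out of 6089 with that position whatever their count. The opposite-strand gene with the nearest end is called the partner below.

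The counts come from RNA sequencing of ID8-OR cells, a line of the mouse ovarian cancer model ID8 that is resistant to olaparib. All groups were treated for 72 hours. The groups received DMSO as the solvent control, olaparib (an inhibitor of PARP enzymes), EZM8266 (an inhibitor of the histone methyltransferases EHMT1 and EHMT2), or both compounds, called the combination. There were 2 libraries in each of the 4 groups. The treatment label of combination replicate 2 spells the compound EZM8267, and its title places it in the combination. The labels name neither doses nor separate cultures, so the p-values reflect only how these libraries vary, perhaps for technical reasons, and resistance was studied in 1 line with no sensitive parent. The libraries with EZM8266 carry sample numbers 33 to 36 and the others 41 to 44, so the sample number and EZM8266 cannot be told apart.

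RNA polymerase II does not stop at the end of a gene. The transcript is cut and polyadenylated at a site marked by a signal such as AATAAA, the polymerase runs on, and the RNA behind the cut is degraded by the exonuclease Xrn2 until transcription ends. When 2 genes point at each other, RNA made past the end of one lies antisense to the other. EHMT1 and EHMT2 add methyl groups to lysine 9 of histone H3, a mark of silent chromatin.

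The strand of the counts decides what these rows can show. The library kit marks the strand so that the first read is antisense to the transcript, while the count table was made with the setting for the other orientation. A row therefore counted fragments on the strand opposite to its own gene, which for the rows here is the strand of the partner. Only 4.54% to 5.40% of the fragments were assigned to a row, and the totals were 973382 to 1680974 counts per library. A small part of each library lies on the wrong strand. Its relative size was taken from the noncoding RNA Rmrp, by dividing the counts of its own row by their sum with the Ccdc107 row, which lies over Rmrp on the other strand, and it was between 1.04% (EZM8266 replicate 2) and 1.68% (DMSO replicate 2). A fragment in one of the 1421 rows can thus be RNA of the partner strand or leaked RNA of the row's own gene, and for a single row the 2 sources cannot be told apart. Among markers of the labelled cells, 10 rows of the ovarian surface epithelium and mesothelium summed to 55.5 to 111 CPM (counts relative to the library total) per library and 5 endothelial rows to 0.618 to 4.64 CPM. Of 11 leukocyte rows 8 had a mean under 1 count, and the 11 summed to 74.8 to 109.9 CPM, with Csf1r the highest (mean 108 counts). Of 8 fibroblast rows 4 had a mean under 1 count, and the 8 summed to 50.3 to 159 CPM, with Col1a1 the highest (136 counts). These marker rows count the strand opposite to the markers, so they do not measure marker expression. Rows over marker exons on the other strand were 2 for each of 3 types and 0 for endothelium. They summed to 186 to 268 CPM for epithelium and mesothelium, 0 to 5.35 for leukocytes and 0 to 1.03 for fibroblasts.

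Most of the rows are genes for proteins. Of the 1421 members, 1318 are annotated as protein-coding, 27 as lincRNA, 20 as snoRNA and 9 as snRNA. Their partners are 1059 protein-coding genes, 104 processed pseudogenes, 60 antisense genes and 49 lincRNAs, where each member is counted once. The median distance from the partner's end to the nearest exon base was 1362 bases (quartiles 492 and 2698), and 118 members began within 100 bases. Few rows lie wholly in the window: all exon bases did for 168 members, the median share was 40.0%, and 874 members had under 50% of their exon bases there. Since the table gives 1 count per gene, where in the row the fragments lie is not measured. There were 1365 different partners, 91 members shared a partner with another member, 178 had several opposite-strand ends in the window, and 532 also lay within 5000 bases of the 5′ end of another opposite-strand gene. Exons of 164 members overlapped an exon of a further gene on their own strand.

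Sequences are shown for 6 members that lie wholly beyond a partner's end or, for 4932411K12Rik, for the exon that does. They were chosen for being abundant, short or called below, and the snRNA pair after its values were seen. Each is printed 5′ to 3′ on the strand the row counts, that of the partner, from GENCODE transcripts of GRCm38. For Gm26917, a noncoding RNA next to a ribosomal RNA gene, the 200 bases nearest to the partner's end are shown (chr17:39846142-39846341, minus strand, 12 bases beyond CT010467.1). For Rn7sk, the 7SK small nuclear RNA that holds the elongation factor P-TEFb inactive, 300 bases are shown (chr9:78175303-78175602, plus strand, beyond the kinase gene Ick). Snord49b, a small nucleolar RNA, is shown whole (chr11:62603079-62603150, minus strand, 1734 bases beyond Lrrc75a). The exon of the noncoding RNA 4932411K12Rik nearest to its partner is chr13:101442392-101442480 (minus strand, 280 bases beyond Gm36994).
Gm26917: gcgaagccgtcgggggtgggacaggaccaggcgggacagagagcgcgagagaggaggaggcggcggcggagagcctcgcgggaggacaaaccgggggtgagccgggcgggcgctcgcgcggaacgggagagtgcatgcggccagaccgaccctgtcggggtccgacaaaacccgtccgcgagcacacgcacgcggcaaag
Rn7sk: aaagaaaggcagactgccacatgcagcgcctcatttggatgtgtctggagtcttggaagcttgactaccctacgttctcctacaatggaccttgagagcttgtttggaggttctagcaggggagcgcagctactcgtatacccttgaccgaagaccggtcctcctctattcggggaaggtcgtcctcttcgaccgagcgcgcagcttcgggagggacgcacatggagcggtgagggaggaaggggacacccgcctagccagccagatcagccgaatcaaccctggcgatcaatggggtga
Snord49b: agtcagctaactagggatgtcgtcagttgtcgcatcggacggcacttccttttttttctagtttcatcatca
4932411K12Rik: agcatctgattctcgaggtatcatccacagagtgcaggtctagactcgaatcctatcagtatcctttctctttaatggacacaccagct

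The 2 snRNA genes Gm24265 (chr5:115489459-115489599) and Gm24407 (chr5:115490254-115490394) share the partner Gm13836, whose end is 2356 and 1561 bases away. They are printed on the minus strand, with capitals at the 2 bases by which they differ. Counted from the 5′ end of the printed strand, these are G43T and C54T from Gm24265 to Gm24407, and the copies are 98.6% identical. Reads from copies this close can be split between the rows, so their separate counts are uncertain. The Gm24265 row held 68 to 348 counts and the Gm24407 row 59 to 320, in both cases lowest in EZM8266 replicate 2 and highest in DMSO replicate 2.
Gm24265: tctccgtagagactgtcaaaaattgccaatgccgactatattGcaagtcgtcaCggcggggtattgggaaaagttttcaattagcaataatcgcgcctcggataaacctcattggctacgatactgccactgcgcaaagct
Gm24407: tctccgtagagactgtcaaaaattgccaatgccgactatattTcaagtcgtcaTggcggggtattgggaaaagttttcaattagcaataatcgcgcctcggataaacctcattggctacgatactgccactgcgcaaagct

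The polyadenylation signals AATAAA and ATTAAA were searched on both strands in the last 300 bases of the longest transcript of each row, the end that faces a convergent partner. None of the 6 printed stretches holds either on the printed strand. On the partner strand AATAAA was found in 22.9% of the members with a sequence and in 18.4% of all rows, and ATTAAA in 17.9% and 14.6%. Among protein-coding rows the shares were 23.5% of members and 25.3% of all rows for AATAAA. On the row's own strand AATAAA was found in 69.5% of members and 45.4% of all rows, and in 71.1% and 67.2% of the protein-coding ones. In these 300 bases the protein-coding members held this signal on the partner strand no more often than protein-coding rows in general. The partner's own end was not searched, so the shares do not show where a partner's signal lies.

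Position beyond a gene end went with the presence of counts. Of the 6089 rows beyond an opposite-strand 3′ end, 23.3% reached a mean of 5 counts (Wilson 95% interval 22.3% to 24.4%). Of the 4198 rows within 5000 bases before an opposite-strand 5′ end, and not beyond a 3′ end, 11.1% did (10.2% to 12.1%). Of the 29139 rows with no opposite-strand gene in that reach 4.62% did. The ratio of the first share to the second was 2.098, and over the 8 libraries taken singly, with at least 5 counts in that library, it lay between 1.76 (DMSO replicate 2) and 2.49 (EZM8266 replicate 2). Every library thus had the larger share beyond the 3′ ends. Rows are not independent, since neighbours share partners, so the intervals describe this table only.

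Part of the contrast came with the kind of gene, and part remained among protein-coding rows. There, 33.7% of rows beyond a 3′ end reached the mean of 5 counts, 21.2% of those before a 5′ end and 12.7% of those with no gene nearby. The median density per kilobase of exon in these protein-coding rows was 0.454, 0.235 and 0.050 CPM. Over all rows the medians were 0.219 beyond a 3′ end and 0.0657 before a 5′ end, and 0 with no gene nearby. Their ratio of 3.34 was 1.93 among protein-coding rows and 5.14 without DMSO replicate 1. Rows beyond a 3′ end could also lie before a 5′ end of another opposite-strand gene, and without those the ratio was 2.24. The upstream median rests on very few fragments per row, and the ratio moves with it.

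The share fell with distance from the partner's end. Among protein-coding rows it was 44.6% at 1 to 500 bases, 36.7% at 501 to 1000, 35.6% at 1001 to 2000 and 26.9% at 2001 to 5000. Farther out, beyond the window of the rule, it was 20.1% up to 10000 bases and 17.7% from there to 20000. Before 5′ ends it was 26.7% in the nearest bin and 14.3% at 2001 to 5000 bases. The interval of the nearest bin beyond 3′ ends (41.2% to 48.2%) lay above those of the bins from 2001 bases on.

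**Figure D1:**
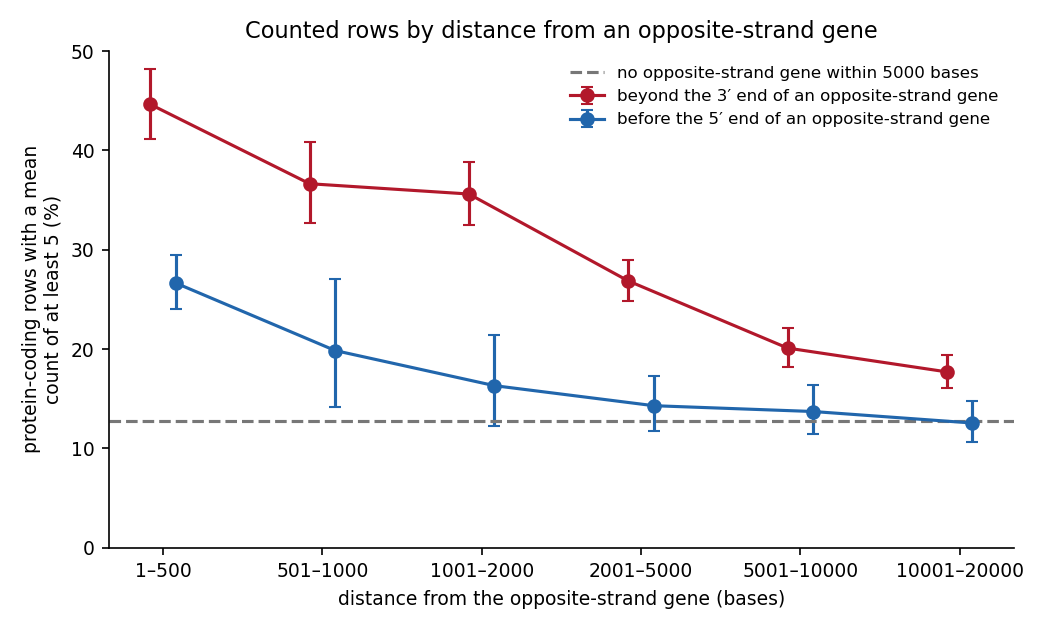
Percent of protein-coding rows that reach a mean of 5 counts (vertical axis) by distance in bases from the nearest opposite-strand 3′ end (red) or 5′ end (blue), with Wilson 95% intervals over rows. The dashed line is the 12.7% of rows with no opposite-strand gene within 5000 bases. The red points fall from 44.6% to 17.7% and lie above the blue points in each bin. Rows in the red points can also lie before the 5′ end of another opposite-strand gene.

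The type and placement of the partner went with the same measure. With a protein-coding partner 38.9% of protein-coding rows reached the mean of 5 counts, against 21% with a processed pseudogene, a copy that is often not transcribed. The partner lay inside the span of the row's own gene, in an intron, for 184 members, and outside it for 1237. Over all rows 21.8% of those with a partner inside (184 of 844) and 23.6% of those with a partner outside (1237 of 5245) were members. Among protein-coding rows 26.2% of those with a partner inside (178 of 679) and 35.3% of those with a partner outside (1140 of 3230) were members. Placement and type went together, since only 54 of the 679 partners inside were protein-coding, against 2487 of the 3230 outside. Of these 54 rows 13 were members (24.1%, interval 14.6% to 36.9%), and of the 2487 rows 975 (39.2%). Where RefSeq lists the partner, its own gene end can be set against the GENCODE end, and in 73 of 1209 members (6.04%) the RefSeq end reached into the row. This was so in 125 of 3560 rows with the same position and fewer counts (3.51%). In these members the fragments can lie within an annotated end of the partner, and they need not be past it.

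Ribosomal protein genes had counts whether or not an opposite-strand gene end was near. Rows of ribosomal proteins, a list added after the data were seen, had a median of 11.95 CPM per kilobase in the 21 beyond an opposite-strand 3′ end, 9.34 in the 10 before a 5′ end and 11.5 in the 28 with no opposite-strand gene nearby. All 21 of the first kind, 9 of the second and 25 of the third reached the mean of 5 counts. In the 21 rows over an opposite-strand gene the median was 15.3, and 19 reached that mean. Whether the counts of any row come from transcription past a gene end was not tested, and the rows are described below by their position.

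The 12 members with the most counts were of several kinds. Values are CPM scaled by the trimmed mean of M-values (TMM). Gm10800 (chr2:98666547-98667301) and Gm10801 (chr2:98662237-98664083) are predicted genes 2464 bases apart that are partners of each other, in a region rich in satellite repeats. Gm10800 had 23256 and 732 CPM in DMSO, 1226 and 18310.3 with olaparib, 902 and 4254 after EZM8266, and 1191 and 1693 with both compounds. Gm10801 had 1209.5 and 41.99, 66.2 and 505, 55.2 and 127, and 84.6 and 56.5 CPM in the same order. Both stood far above the others in DMSO replicate 1 and olaparib replicate 2, so the highest library was 31.8 and 28.8 times the lowest, and no treatment group held the high values together.

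Gm26917 and Rn7sk are noncoding. Gm26917 (chr17:39843013-39846341) had 1600.3 and 2280.5 CPM in DMSO, 1627 and 1505 with olaparib, 2059 and 715 after EZM8266, and 1761 and 1313 with both compounds. Its partner CT010467.1 is annotated as ribosomal RNA, and that row held 99032 to 309271 counts per library. Rn7sk (chr9:78175303-78175633) had 757 and 1038 CPM in DMSO, 989 and 588 with olaparib, 937 and 573 after EZM8266, and 1093 and 699.8 with both compounds. The groups overlapped for Gm26917 and Rn7sk, and each was lowest in EZM8266 replicate 2. The Rn7sk row lies 3196 bases beyond Ick, but 281 bases from the 5′ end of opposite-strand C920006O11Rik.

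Another 5 rows were also lowest in EZM8266 replicate 2. Ccnb1ip1, a ubiquitin ligase of meiotic recombination, whose row shares exon bases with the RNase P RNA gene Rpph1, ranged from 202 to 508 CPM. Its partner Gm48938 is a processed pseudogene with 0 counts, and the 5′ end of opposite-strand Parp2 is 109 bases from the row. Rrbp1, a ribosome-binding protein of the endoplasmic reticulum, ranged from 231 to 419, and Eef1a1, the translation elongation factor, from 193 to 421. Snord49b ranged from 144 to 285 CPM, and the chaperone Hsp90ab1, 104 bases beyond the nucleotide sugar transporter Slc35b2, from 102 to 303. All 5 were lowest in EZM8266 replicate 2, the library with the smallest Rmrp share, and highest in DMSO replicate 2, the library with the largest. Rrbp1 has 8% of its exon bases in the window beyond Dstn.

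The other 3 of the 12 had a narrower range and were highest in EZM8266 replicate 2. The Stx3 row (chr19:11775118-11819403), a membrane fusion protein, lies 174 bases beyond Mrpl16 of the mitochondrial ribosome. It had 212 and 230 CPM in DMSO, 239 and 236 with olaparib, 245 and 274 after EZM8266, and 250 and 235 with the combination. The Atg7 row (chr6:114643097-114860614), an enzyme of autophagy, lies 14 bases beyond Vgll4, a cofactor of TEAD transcription factors. It had 230 and 221, 212 and 203, 243 and 265, and 204 and 206 CPM. The Mroh2a row (chr1:88226986-88262289) lies 182 bases beyond Hjurp, the chaperone of centromeric histone CENP-A, and the RefSeq end of Hjurp runs 3615 bases past the GENCODE end, into the row. It had 200 and 181, 204 and 202, 207 and 248, and 226 and 224 CPM. In Stx3, Atg7 and Mroh2a the highest library was 1.29, 1.30 and 1.37 times the lowest. The lowest libraries were DMSO replicate 1, olaparib replicate 2 and DMSO replicate 2.

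**Figure D2:**
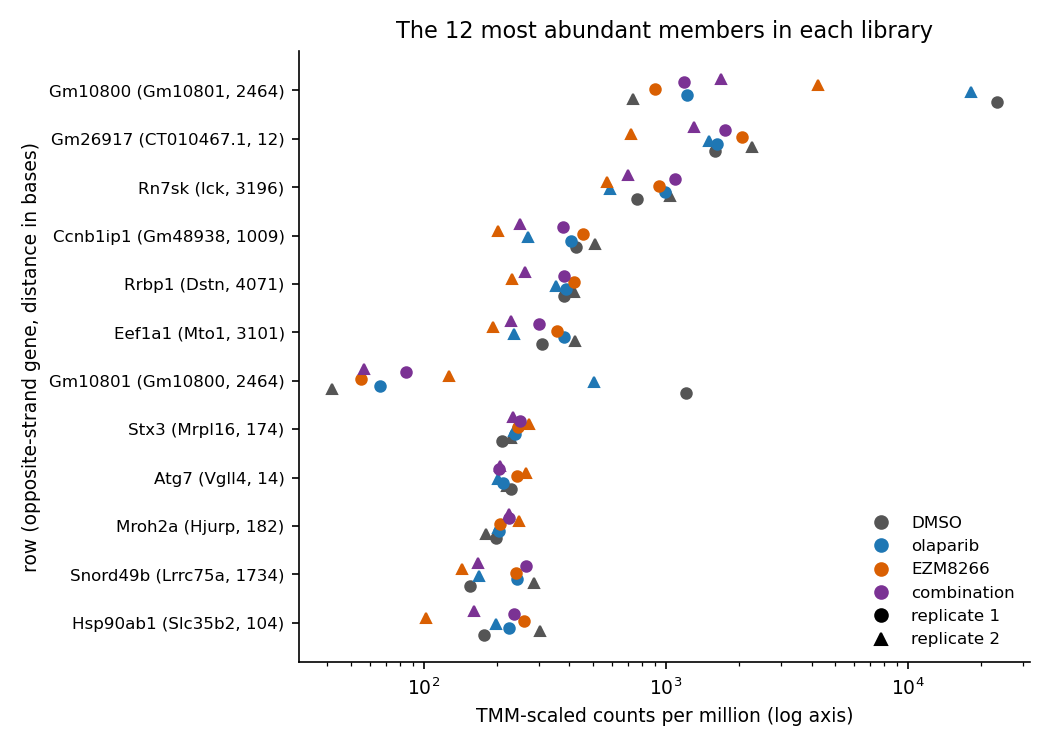
TMM-scaled CPM (log axis) of the 12 members with the most counts, 1 point per library, coloured by treatment, with circles for replicate 1 and triangles for replicate 2. Gm10800 and Gm10801 are high in DMSO replicate 1 and olaparib replicate 2, and Stx3, Atg7 and Mroh2a span less than the other rows.

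In 255 pairs both genes were members, so each row counts the strand of the other beyond its end. Counted per kilobase, the median ratio of the higher to the lower row was 2.32. It was at least 4 in 69 pairs and under 2 in 112. Tmsb10, an actin-sequestering peptide, had 95.9 CPM per kilobase and Gm26640, 100 bases away, had 2.32. Fth1, the ferritin heavy chain, had 103 against 3.11 for the channel gene Best1 (82 bases), and Hsp90ab1 had 67.0 against 2.26 for Slc35b2. Atg7 had 31.3 against 1.93 for Vgll4, and Mroh2a 24.3 against 0.891 for Hjurp.

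At the other end of the scale, 633 members had a mean under 10 counts and 33 had one of at least 100, with a median of 10.6. At the threshold of the rule, 24 rows had a mean of exactly 5 counts, among them Arhgef18 (504 bases beyond Pex11g), Ndufv1, Sec14l2, Dpp3 and Larp4b. There were 20 at 4.88, 1 count less over the 8 libraries, among them Myg1 (113 bases beyond Aaas), Pard6a, Fam20a, Ergic3 and Rbl1, and these were left out. The rule divides rows here by single fragments.

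In DMSO the members held 4.73% and 2.84% of the counts, under olaparib 2.25% and 4.30%, under EZM8266 2.81% and 2.46%, and under the combination 2.37% and 2.56%. The mean was 3.04% ± 0.941 (SD, n = 8 libraries). The high values in DMSO replicate 1 and olaparib replicate 2 came with the repeat rows Gm10800 and Gm10801, which held 2.37% and 1.92% of those libraries. Without these rows and Gm26917 the shares were 2.21% and 2.54%, 2.00% and 2.23%, 2.50% and 1.94%, and 2.09% and 2.24%. No treatment group then stood apart from the others. Rows that have no opposite-strand gene nearby and reach the mean of 5 counts held 1.52% (EZM8266 replicate 2) to 2.34% (DMSO replicate 2).

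**Figure D3:**
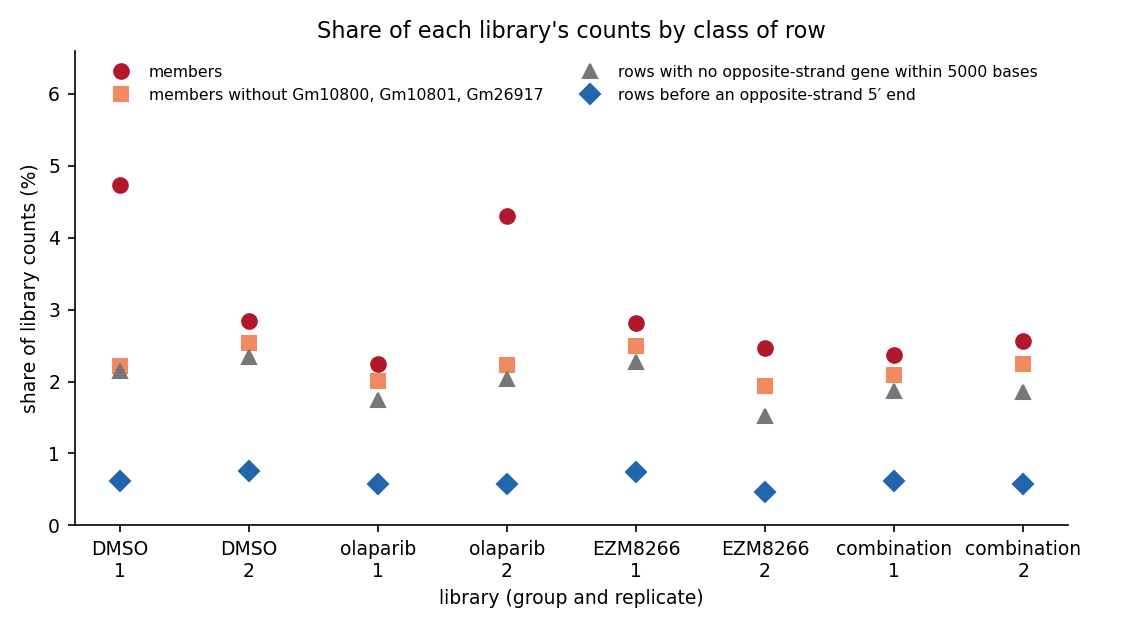
Percent of a library's counts (vertical axis) held by all members, by members without Gm10800, Gm10801 and Gm26917, and by 2 other classes of rows that reach the mean of 5 counts, for each of the 8 libraries. Without the 3 rows the members lie between 1.94% and 2.54%.

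For the treatment comparisons, 982 of the 1421 members passed the filter on low counts, and 439 did not. All 6379 rows of the table that passed were fitted with edgeR's quasi-likelihood test, and calls were made at 0.05 after Benjamini-Hochberg adjustment over all of them.

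The first comparison, of olaparib with DMSO, concerned the PARP inhibitor alone. No member was called, against 0% of all tested rows. DESeq2 called none, beside 0% of all rows it tested. There were 18 members with an unadjusted p under 0.05 in edgeR (1.83% of members and 1.83% of all tested rows). The smallest p was that of Kmt5a, the methyltransferase for lysine of histone H4, 957 bases beyond Rilpl2, among members whose mean was at least 20 counts. Its row had 35.3 and 31.5 CPM in DMSO and 17.7 and 15.5 with olaparib, a log2 difference of -0.997 ± 0.30 (SE, edgeR adjusted p 0.999). Gpx3, a secreted glutathione peroxidase 408 bases beyond the NF-κB inhibitor Tnip1, had 29.4 and 22.2 CPM in DMSO and 36.8 and 40.7 with olaparib (log2 difference 0.61 ± 0.25, edgeR adjusted p 0.999). Both rows were named for a small unadjusted p, and neither passed over all rows. Of the others the rule names, Adcy7, Baz2a and Fosl1 had log2 differences of 0.62, 0.40 and 0.47, and Hist1h4d, Srebf2 and Gm22513 of -0.82, -0.70 and -0.58. For Adcy7 and Fosl1 the RefSeq ends of Brd7 and Ccdc85b reach into the row.

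The comparison of EZM8266 with DMSO concerned inhibition of EHMT1 and EHMT2 alone. No member was called by edgeR, against 0.204% of all tested rows. DESeq2 called none, beside 0.166% of all rows it tested. There were 38 members with an unadjusted p under 0.05, 3.87% of members beside 5.72% of all tested rows. Psat1, an enzyme of serine synthesis, had 24.5 and 32.7 CPM in DMSO and 9.84 and 8.95 with EZM8266, a log2 difference of -1.61 ± 0.37 (SE, edgeR adjusted p 0.185). Its partner Gm3329 is a pseudogene with 0 counts inside the Psat1 gene, and 1% of the exon bases of the row lie in the window. Jak3, a cytokine receptor kinase 181 bases beyond the glycosyltransferase B3gnt3, had 12.7 and 11.1 CPM in DMSO and 20.4 and 23.9 with EZM8266 (0.89 ± 0.38, edgeR adjusted p 0.823). The Jak3 row shares exon bases with Insl3 on its own strand, and 27.0% of its exon bases lie in the window. Maff, Mamdc4 and Baz2a had log2 differences of 0.56, 0.64 and 0.62, and Eprs and Lztr1 of -0.99 and -0.76. Gm10801 had -2.78 ± 1.09, and 1.10 without DMSO replicate 1.

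The third comparison with DMSO concerned both compounds together. No member was called by edgeR, against 0.219% of all tested rows. DESeq2 called none, beside 0.191% of all rows it tested. There were 46 members with an unadjusted p under 0.05, 4.68% of members beside 4.89% of all tested rows. Gpx3 had 50.4 and 44.8 CPM, a log2 difference of 0.90 ± 0.25 from DMSO (SE, edgeR adjusted p 0.386), and Psat1 had 14.1 and 12.7 CPM (-1.11 ± 0.36, edgeR adjusted p 0.621). Jak3 had 25.2 and 20.5 CPM (0.94 ± 0.38). Mpeg1, a pore-forming protein of macrophages 1057 bases beyond Dtx4, went from 45.1 and 34.6 to 56.4 and 72.1 CPM (0.71 ± 0.29), and the snRNA Gm25541 had a difference of 0.88. Tnrc18, the circadian factor Clock and the RNA helicase Ddx19a had differences of -0.95, -0.83 and -0.81. All 3 treatments share the DMSO libraries, so these values are not independent of each other.

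The remaining pairs had no called member either. Against olaparib the combination called 0 members beside 0.0941% of all tested rows, with 32 members at an unadjusted p under 0.05 (3.26%, beside 3.81% of all tested rows). Against EZM8266 it called 0 beside 0%, with 22 (2.24% beside 1.54%). The interaction of olaparib and EZM8266, which asks whether the effect of one compound depended on the other, called 0 beside 0%, with 23 (2.34% beside 1.61%). DESeq2 called no member in these 3 comparisons, beside 0.0287%, 0.00358% and 0% of all rows it tested, in the same order.

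With the pairs averaged, the 4 libraries with EZM8266 were compared with the 4 without, and 2 members were called by edgeR, both higher (beside 0.658% of all tested rows in either direction and 0.596% higher). There were 50 members with an unadjusted p under 0.05 (5.09%, beside 6.77% of all tested rows). DESeq2 called neither. The 2210010C04Rik row (chr6:41030268-41035509), a gene of the trypsin family 3623 bases beyond the pseudogene Gm38294, had 1 count in each DMSO library, 7 and 5 with olaparib, 16 and 12 after EZM8266, and 11 and 12 with the combination. The scaled values were 0.979 and 0.618, 5.15 and 4.07, 12.1 and 11.9, and 11.1 and 11.7 CPM. All 4 libraries with EZM8266 lay above the 4 without, and olaparib lay above DMSO. The row reached the mean of 5 counts, and passed the filter on low counts, only through the libraries with EZM8266. Its selection was thus not independent of this difference. The averaged log2 difference was 2.55 ± 0.47 (SE, edgeR adjusted p 0.0212). The counts in DMSO are under the floor of 3, so the fitted size depends on the prior count. The Gm38294 row itself had 0 or 1 count.

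The other called member was 4932411K12Rik (chr13:101254294-101464160), a lincRNA 280 bases beyond Gm36994, which lies inside its span. It had 6.86 and 8.03 CPM in DMSO, 10.3 and 12.2 with olaparib, 24.2 and 20.9 after EZM8266, and 27.2 and 23.4 with the combination. The 4 libraries with EZM8266 again lay above the 4 without, with an averaged log2 difference of 1.37 ± 0.27 (SE, edgeR adjusted p 0.032). Of the row's exon bases 3.24% lie in the window beyond Gm36994. Neither partner is a protein-coding gene. With the pair of libraries rich in repeats left out (DMSO replicate 1 and olaparib replicate 2) neither of the 2 members was called. The same held when any 1 library of DMSO, olaparib or the combination was left out. Those fits leave 1 library in at least 1 group. Of 16 other fits 2210010C04Rik was called in 8 (edgeR or DESeq2 adjusted p 0.000592 to 0.256) and 4932411K12Rik in 6 (0.00115 to 0.355).

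Other members with small p-values in this comparison did not pass. Jak3 had a log2 difference of 0.76 ± 0.26 (edgeR adjusted p 0.46), Maff 0.35, Nutm1 0.50 and 2410006H16Rik 0.55. Psat1 had -1.04 ± 0.27 (edgeR adjusted p 0.163) and the transcription factor Nfe2l3 -0.56. Gm10800 and Gm10801 had -2.49 and -2.40, and 1.02 and 0.59 without the libraries rich in these repeats. Counted without a test, 12 members (1.22%) had all 4 libraries with EZM8266 above all 4 without, beside 3.32% of all tested rows, and 16 (1.63%) had them below, beside 2.02%.

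**Figure D4:**
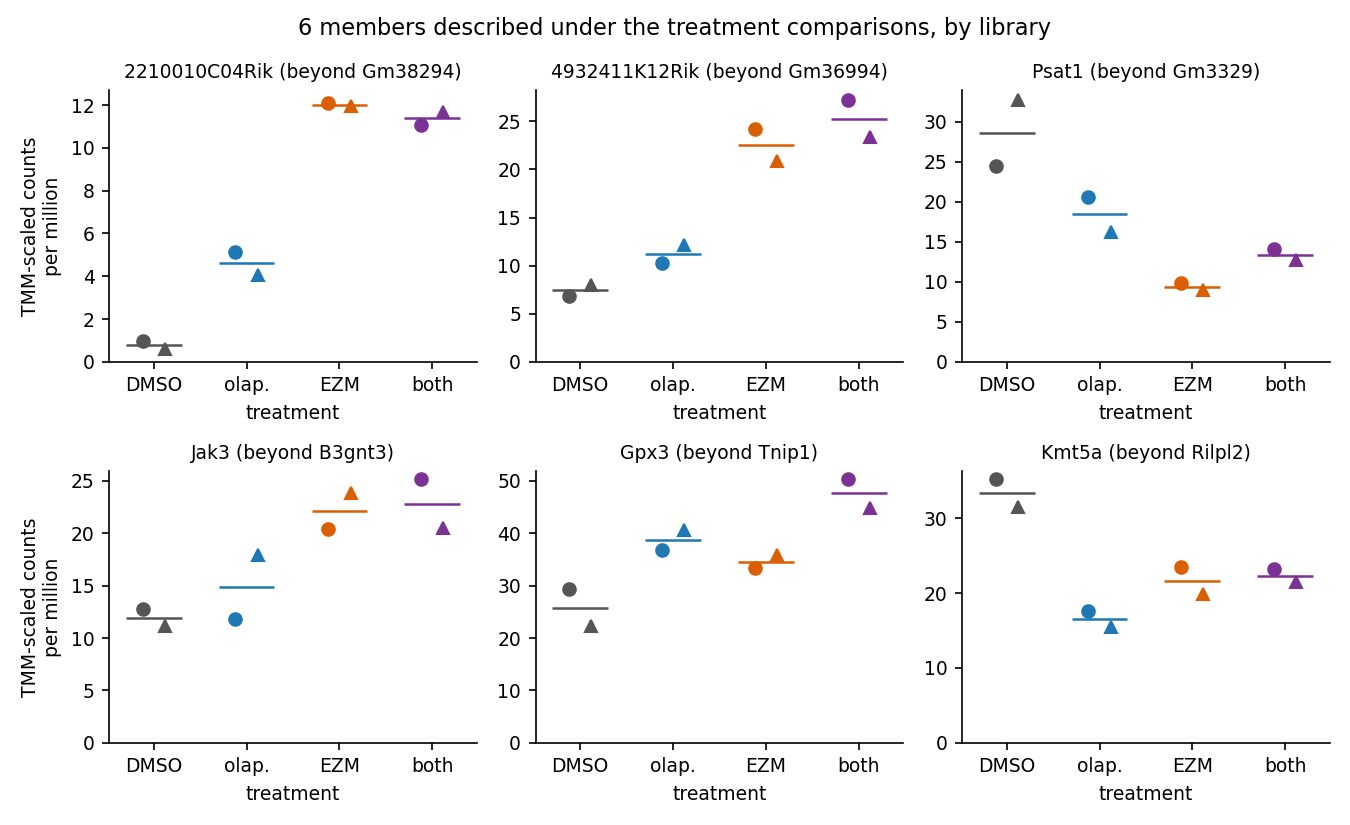
TMM-scaled CPM (vertical axis, from 0) of 6 members by treatment, with circles for replicate 1, triangles for replicate 2 and a line at the mean of the 2 libraries (olap., olaparib; EZM, EZM8266; both, the combination). 2210010C04Rik and 4932411K12Rik are higher in the 4 libraries with EZM8266, while Psat1, Jak3, Gpx3 and Kmt5a did not pass the test in any comparison.

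As a group the members sat slightly below 0. Their median log2 differences from DMSO were -0.10 for olaparib, -0.20 for EZM8266 and -0.14 for the combination, while the medians of all tested rows were -0.01, -0.02 and -0.02. Rows with no opposite-strand gene nearby had -0.20, -0.26 and -0.22, rows before a 5′ end -0.21, -0.25 and -0.25, and rows over an opposite-strand gene 0.03, 0.04 and 0.02. The members lay between these classes. By distance, the median with EZM8266 against DMSO was -0.14 at 1 to 500 bases, -0.20 at 501 to 1000, -0.17 at 1001 to 2000 and -0.24 at 2001 to 5000.

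The library with the extreme value differed in the same order. EZM8266 replicate 2 held the lowest of the 8 values in 32.4% of tested members, in 44.1% of rows with no opposite-strand gene nearby and in 12.6% of rows over an opposite-strand gene. DMSO replicate 2 held the highest in 21.6%, 33.7% and 9.08%. These are the libraries with the smallest and largest Rmrp share, 1.04% and 1.68%. Among members the share lowest in EZM8266 replicate 2 was 29.1% at 1 to 500 bases and 39.9% at 2001 to 5000 bases, and it was 29.8% with a protein-coding partner and 40.8% with another. The part of strand leakage in the group medians was not tested.

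**Figure D5:**
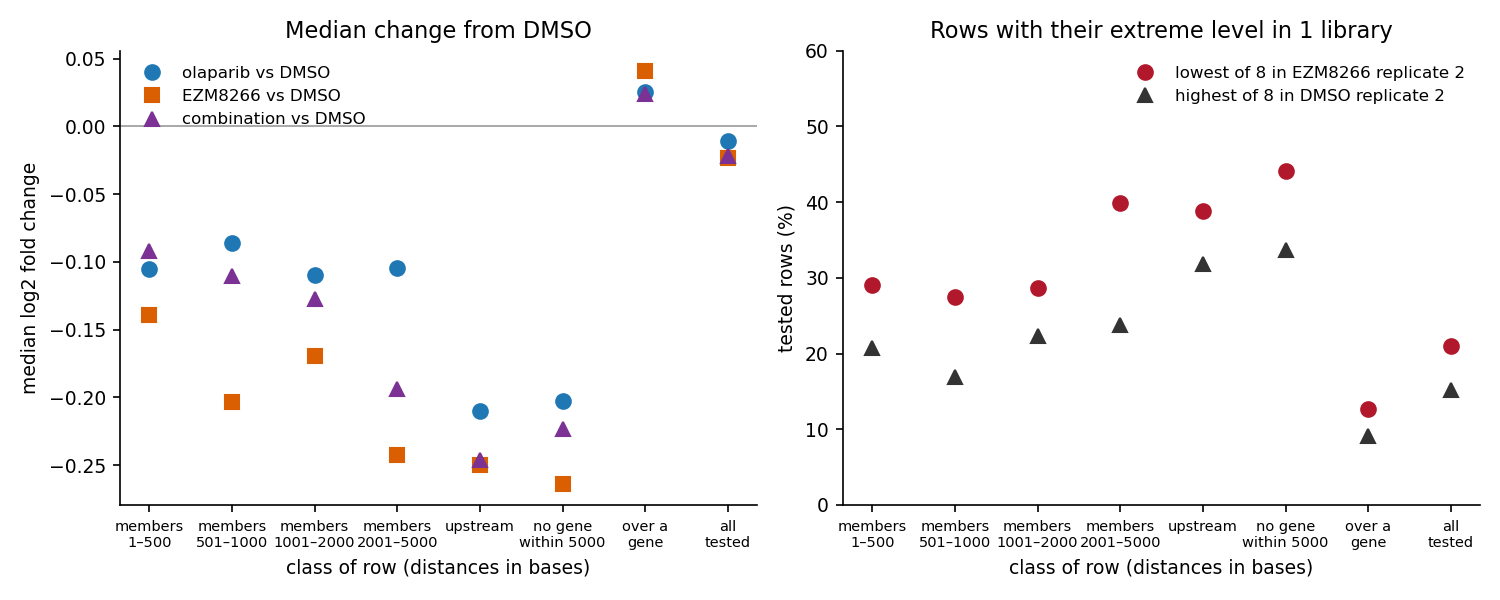
Left, median log2 difference from DMSO for members by distance in bases from the partner's end, for 3 other classes and for all tested rows. Right, percent of tested rows whose lowest value lies in EZM8266 replicate 2 (circles) or whose highest lies in DMSO replicate 2 (triangles). Members lie between rows over a gene (12.6% lowest in EZM8266 replicate 2) and rows with no gene nearby (44.1%).

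Members beyond genes of fixed lists were also read. Of 51 factors of 3′ end processing and termination 7 were partners, and 6 of those members were tested, with 0 called in any of the 3 comparisons with DMSO or in the averaged one. Atp5j2, beyond the cleavage factor Cpsf4, had 35.3 and 22.2 CPM in DMSO, 27.2 and 29.3 with olaparib, 23.5 and 21.9 after EZM8266, and 19.1 and 21.4 with the combination. Proca1, beyond the elongation factor Supt6, had 6.86 and 9.88, 7.36 and 9.76, 14.4 and 16.9, and 12.1 and 17.5 CPM. In Proca1 the 4 libraries with EZM8266 lay above the 4 without (averaged log2 difference 0.82 ± 0.33, edgeR adjusted p 0.614). Shcbp1l, beyond the helicase Dhx9, and Sft2d3, beyond the poly(A) signal reader Wdr33, had averaged log2 differences of 0.52 and -0.30 that did not pass. On the rows of the listed factors themselves, 30 of 50 were tested and 0 were called, but these count the strand opposite to the factors.

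The other lists gave few members. The matrix list had Dld beyond Lamb1 and Adrm1 beyond Lama5, and the DNA damage list N4bp2l1 beyond Brca2, Osgin2 beyond Nbn and Sae1 beyond Bbc3. These rows held 1 to 21 counts per library, and of these 5 only Dld and N4bp2l1 were tested. None was called.

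Replication-dependent histone genes, whose transcripts end without a poly(A) tail, were the partners of 16 members, 15 of them tested and 0 called. With EZM8266 against DMSO 1 of the 15 lay above 0, with a median log2 difference of -0.31. Of all tested members 32.6% lay above 0 (median -0.20), and of rows with no opposite-strand gene nearby 26.8% (median -0.26). Of 48 tested rows of the histone genes themselves 9 lay above 0 (median -0.29). Of 22 tested rows over histone exons on the other strand 13 did (median 0.08). With olaparib 5 of the 15 lay above 0 (median -0.20), beside 39.5% of all tested members (-0.10). With the combination 6 did (-0.05), beside 36.7% (-0.14), and in the averaged comparison 4 (-0.19), beside 36.4% (-0.12). The genes sit close together in clusters, and 19 members are themselves on the list. Hist1h1c, a linker histone 4606 bases from Hist1h3c, had 213 and 252 CPM in DMSO, 221 and 146 with olaparib, 232 and 142 after EZM8266, and 224 and 170 with the combination. Hist1h4d, 935 bases beyond Hist1h2be, had 57.8 and 59.3 CPM in DMSO against 22.9 to 45.4 in the 6 treated libraries, with log2 differences of -0.82, -0.75 and -0.93 and edgeR adjusted p-values of 0.999, 0.825 and 0.737. Hist1h4d was named in part for its small p with olaparib, and its differences did not pass over all rows.

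With 2 libraries a group, a small change was not detectable. The median standard error of a log2 difference from DMSO was 0.48 for olaparib and 0.49 for EZM8266 over the tested members, and 0.26 for both where the mean reached 100 counts.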

How the data were processed

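Per the labels' protocols, RNA depleted of ribosomal RNA was made into libraries with the KAPA mRNA HyperPrep kit and read as pairs of 150 bases. The submitters' processing notes name HISAT2 2.1.0, Subread 1.6.2 and mm10. Per the file headers, the authors counted read pairs over exons of GENCODE M18 genes with featureCounts, strand setting 1, with a fragment allowed for several genes. The deposited values are raw counts, used as they are. The deposited row length in bases (unit other) and the authors' counting summary in fragment counts gave the densities and assigned shares. Symbols came from GENCODE M21 (54079 rows named, 67 not).

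The main test was edgeR 4.0.16 (quasi-likelihood, TMM, filterByExpr with a minimum count of 10 and total of 15), with all 8 libraries and 4 group means. In a test on simulated data with EZM8266 against DMSO 32% of 2-fold and 66% of 4-fold changes were called over 6092 rows, with 15 false calls. The averaged comparison called 56% and 84%, with 19 false calls. For olaparib against DMSO, where 0 simulated rows were changed, 6 rows were called, all of them falsely. A called member can thus be a false call. Members, lists and tests were chosen with earlier results of these data known. Named members are the 12 with the most counts, those called, the 4 of each direction with the smallest p and a mean of at least 20 counts in each of 4 comparisons, 5 on each side of the count threshold, and up to 4 for each list of partners. Counting intervals and the floor of 3 counts cover counting error only. The alternatives were DESeq2 1.42.0, RLE scaling, other filters, a replicate block, the Rmrp share as a covariate, libraries left out, and other windows, count thresholds and placements. The result of 1 further list is not reported here.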

Additional observations from a re-analysis of the deposited data

How the results depend on the processing

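The count of called members depended on the processing. For EZM8266 present against absent (2 called) it was 0 with DESeq2, 0 without DMSO replicate 1 and olaparib replicate 2 together, 5 with the Rmrp covariate (0.509% of members, 1.33% of all tested rows), 8 with no low-count filter (0.563%, 0.298%), 1 with the replicate block, 1 with a window of 2000 bases and 1 with a mean count of at least 10, and it ranged from 0 to 6 with 1 library left out. It was 0 without DMSO replicate 1, olaparib replicate 1 or 2, or combination replicate 1 or 2, 1 without DMSO replicate 2 (Gm10801, lower, and neither of the 2) and 6 without EZM8266 replicate 1 (0.534%, 0.925%). For EZM8266 against DMSO (0 called) it was 1 with the filter of 1 CPM, 2 with the Rmrp covariate (0.204%, 0.721%) and 4 with no filter (0.281%, 0.151%). For the combination against DMSO (0) it was 1 with the filter of 1 CPM, 4 with the covariate (0.407%, 0.925%) and 5 with no filter (0.352%, 0.161%). It was 1 with only the groups compared. Without the filter it was 2 for olaparib against DMSO (0.141% of members, 0.0287% of all tested rows). It was also 2 for the combination against olaparib (0.141%, 0.151%) and against EZM8266 (0.141%, 0.0430%). The covariate gave 3 for the combination against olaparib (0.305%, 0.627%). The single call with the replicate block was 0.102% of members, beside 0.611% of all tested rows. With the filter of 1 CPM the single calls were 0.0705%, beside 0.132% for EZM8266 against DMSO and 0.138% for the combination. With only the groups compared the call was 0.135%, beside 0.389%. The interaction called 0 in all 21 settings. The cause of these changes was not tested. Gm10800 and Gm10801 were among the 8 members called in the averaged comparison with no low-count filter. There Gm10800 had an edgeR adjusted p of 3.01e-215, against 0.472 in the main test, so the calls of this setting need care.

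Libraries with the same replicate number did not deviate from their group means in the same way across all 4 groups. Deviations correlated at -0.31, -0.32 and -0.15 between DMSO and the other groups and at 0.22 to 0.29 among these. With 2 libraries a group, this cannot show whether the samples were paired. With DMSO numbers crossed, a setting chosen after seeing the data, the block called 9 members with EZM8266 against DMSO (0.916% of members, 1.32% of all tested rows), 5 with the combination (0.509%, 1.14%) and 9 in the averaged comparison (0.916%, 2.08%).

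The number of members was 915 with a window of 2000 bases, 788 with a mean of at least 10 counts and 889 without those also upstream of another gene. The share of counts was 1.59% with the window of 2000 bases. The ratio of shares beyond 3′ to before 5′ ends was 1.83 with that window and 1.59 among protein-coding rows. It was 1.90 without rows beyond a 3′ end that also lie before a 5′ end. The ratio of median densities was 5.20 with a window of 10000 bases and 3.33 to 5.14 with 1 library left out. Without the repeat-rich libraries, Gm10800 had 1.02 and Gm10801 0.59 in the averaged comparison, and Gm10801 had 1.10 with EZM8266 against DMSO. With 1 library left out the latter ranged from -3.75 to 1.10.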
